A study of Mus musculus with 21 samples.

Results

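The regions described here are the Ash1L-bound regions that the study's peak annotation assigned to 3 signalling genes, Vgll3, Tcf7l2 and Socs2. They were taken from the deposited list that merges the narrow peaks of all Ash1L ChIP-seq replicates, and every merged region whose annotated gene was one of these 3 was kept. This gave 6 of 259 merged regions and 3 of the 146 genes to which that annotation assigned a region. Vgll3 had 3 regions, Tcf7l2 had 2 and Socs2 had 1. Of the 146 genes, 83 had 1 region, 34 had 2, 17 had 3 and 12 had more.

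Ash1L was immunoprecipitated from C2C12 cells, an established C3H mouse muscle myoblast line, after 24 h (day 1) in DMEM with 2% donor horse serum, with a rabbit antibody from Bethyl (A301-749A). There were 3 replicates, each with its own list of narrow peaks called against input chromatin, and nothing in the labels says whether they came from separate cultures. All 3 came from this single line at a single time, so the lists show where peaks were called and not whether binding changed. The lists hold no read counts, and the depth behind each peak is therefore unknown. Each peak row has 1 unnamed value, read here as the −log10 q of the peak caller, and rows that share a region were treated as sub-peaks of 1 peak. Every coordinate is on GRCm38 (mm10), counted from 1.

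Ash1L is a Trithorax-group histone methyltransferase that acts on lysine 36 of histone H3 and is associated with active transcription. The genes sit at different points of signalling to the nucleus. Vgll3 is a vestigial-like cofactor that binds TEAD transcription factors, which are also the partners of YAP and TAZ at the end of the Hippo pathway. Tcf7l2 is a TCF/LEF transcription factor with an HMG box that recruits β-catenin when Wnt signalling is on. Socs2 is an SH2-domain adaptor with a SOCS box that limits growth hormone signalling through JAK2 and STAT5. All these pathways are known to act in skeletal muscle growth or differentiation.

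Vgll3 (ENSMUSG00000091243) lies on the plus strand of chromosome 16, at chr16:65815257-65866368, and had the largest summed region width of the 3 genes, 2748 bp against 807 bp at Tcf7l2 and 330 bp at Socs2. Its 3 regions followed each other within 3349 bp around the start of the gene, and 82.1% of that span lay in a merged region. The first was separated from the second by 435 bp, and the second from the third by 166 bp. The short gap between the first pair holds most of exon 1, including all of its coding bases. Outside these 3 regions no peak of any list lay within 100 kb of the gene, and the closest merged region of another gene was 8423462 bp away.

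The first Vgll3 region, at chr16:65815078-65815335 (258 bp), covered the start of the gene. It contained the transcription start site (TSS) of transcript Vgll3-201 at 65815257 and 79 bp of exon 1, all of it non-coding. Replicate 1 had a single peak row over the whole region, with a −log10 q of 5.92, and replicates 2 and 3 had no peak there. Promoter binding at Vgll3 was thus recorded in 1 list. Its position depended on which base was taken as the start of the gene. Relative to the first coding base, at 65815633, the same region ended 298 bp upstream, whereas the RefSeq start site, at 65815189, lay inside it, as did the GENCODE one.

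The second Vgll3 region, at chr16:65815771-65816993 (1223 bp), began 12 bp into intron 1 and ended 10900 bp before that intron's 3′ end in Vgll3-201. Replicate 1 had 1 peak over the whole of it, with 3 sub-peaks of −log10 q 6.83, 8.91 and 5.92. Replicate 3 had a peak at chr16:65815804-65816182 with a value of 5.67 and another at chr16:65816281-65816828 with a value of 10.0, the highest value of any member region. Replicate 2 had none. The lists of replicates 1 and 3 therefore both placed peaks here but divided the stretch differently, with a gap of 98 bp in replicate 3 where replicate 1 was continuous. Both lists covered 927 of the 1223 bp, or 75.8%, close to the median of 76.2% over the 123 merged regions with peaks of both replicates.

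The third Vgll3 region, at chr16:65817160-65818426 (1267 bp), lay 1401 bp into the same intron. Here replicate 3 had the wider call, 1 peak over the whole region with sub-peaks of 8.38 and 4.27. Replicate 1 had a peak of 534 bp inside it, at chr16:65817276-65817809, with a value of 4.32. The bases in both lists made up 42.1% of the region. In replicate 1 this peak ranked 223 of 240 by value, while in replicate 3 the corresponding peak ranked 120 of 228. Both lists nevertheless gave the second region a higher value than the third.

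Tcf7l2 (ENSMUSG00000024985) lies on the plus strand of chromosome 19, at chr19:55741820-55933654, and its regions were the only merged regions on that chromosome. Chromosomes 10 and 16 had 14 each. Both regions were intronic and 729 bp apart, and each was found in a single list, a different one in each case. The first, at chr19:55744025-55744272 (248 bp), had 1 peak row in replicate 1 with a −log10 q of 8.72. The second, at chr19:55745002-55745560 (559 bp), had 1 peak in replicate 3 with sub-peaks of 4.09 and 4.46. Replicate 2 had no peak at either. No peak was thus shared between lists at Tcf7l2, although replicates 1 and 3 each had 1 peak within a stretch of 1536 bp.

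In 9 of the 12 coding transcripts of Tcf7l2, those that start upstream of them, the regions lay in intron 3, the first 827 bp and the second 1804 bp from its 5′ end. That intron is 74566 bp long in Tcf7l2-201, which makes both regions 5′-proximal within it. The nearest TSS, at 55742845, belongs to a transcript annotated as a retained intron, Tcf7l2-217, and was 1180 bp from the first region and 2157 bp from the second. Among coding transcripts the nearest TSS was that of Tcf7l2-210 at 55742342, at distances of 1683 and 2660 bp. From the outermost start of the gene, at 55741820, the distances were 2205 and 3182 bp. Both regions were downstream of the promoter by each of these measures. RefSeq lists another start at 55895321, from which the nearer region was 149761 bp away.

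Socs2 (ENSMUSG00000020027) lies on the minus strand of chromosome 10, at chr10:95385362-95417180, and had a single region, at chr10:95414301-95414630 (330 bp). Replicate 1 had 1 peak row over it with a −log10 q of 5.92, and replicates 2 and 3 had no peak. The region lay in the 1720 bp intron between the exon with the start codon and the next coding exon, 200 bp from the former and 1190 bp from the latter, and held 0 exon bases. Socs2 has 12 annotated start sites, so its position was read against several of them. The nearest, at 95414827, starts the non-coding transcript Socs2-207 and was 197 bp upstream. The nearest TSS of a coding transcript, Socs2-202 at 95415283, was 653 bp upstream, and the outermost, at 95417180, was 2550 bp upstream. The divergent noncoding gene 5730420D15Rik starts at 95417375, which was 2745 bp from the region. No peak of any list covered that start or any annotated start of Socs2. The next merged region on the chromosome was assigned to Cradd, 148300 bp away.

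All 6 regions were within 5 kb of an annotated TSS, and in each case the nearest TSS was one of the assigned gene's own. The annotation that chose them assigned peaks to genes by distance to the TSS, so nearness to a TSS follows in part from the choice and is given as a description. Shares are therefore set beside both the 259 merged regions and the 199 of them with an assigned gene, the latter added after the values were seen. Within 5 kb of a TSS were 74.1% of the 259 and 92% of the 199. Within 1 kb there were 3 of the 6, the first and second of Vgll3 and that of Socs2, against 46.7% and 58.8%. Only the first Vgll3 region contained a TSS, as did 23.6% and 29.6%. The other 5 were wholly intronic, against 39% and 45.7%. These 5 also lay in the first intron of at least 1 annotated transcript, against 42.1% and 49.2%, although for Tcf7l2 and for most Socs2 transcripts this intron is not the first. Measured from the outermost start of each gene, the regions after the Vgll3 promoter began between 514 and 3182 bp downstream. Just 1 of the 6 regions, at Vgll3, reached upstream of its gene's outermost start.

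Replicate support was uneven. Of the 6 regions, 2 were in at least 2 replicate lists, both at Vgll3, against 47.5% of all merged regions. None was in all 3 lists, against 13.5%, and 4 were in 1 list alone, against 52.5%. The replicate 1 list had a peak at 5 of the 6, against 69.5% of merged regions, and the replicate 3 list at 3, against 78%. In replicate 1 alone were 3 regions, against 22%, and in replicate 3 alone was 1, against 30.5%. The 2 regions in both lists rest on replicates 1 and 3. Because replicate 2 had no peak at any of the 6, leaving out either of these necessarily left no region of the 3 genes in 2 lists.

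The replicate 2 list had no peak at any of the 6 regions. It was the shortest list, with 35 peaks against 240 in replicate 1 and 228 in replicate 3, and it reached 13.5% of all merged regions. Its peaks were wide, with a median of 3109 bp against 514 bp and 592.5 bp, and the narrowest was 1035 bp. The merged regions it reached had a median highest value of 35.8 and were at least 1643 bp wide, wider than every region described here. Of these 35 regions, 34 had a highest value above the 10.0 of the second Vgll3 region, and 1 was below it. Among the 224 merged regions without a replicate 2 peak, the 6 regions ranked between 79 and 195 by highest value. Since the depth of that library is unknown, a peak missing from its list cannot be read as absent binding.

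By the highest value in any list, the 6 regions ranked between 113 and 230 of 259. Such ranks set values of different lists against each other, although the depth of each library is unknown. A region in more lists also has more values from which its highest is taken. The second Vgll3 region ranked 113, the first Tcf7l2 region 129 and the third Vgll3 region 135. The first Vgll3 region and the Socs2 region shared rank 191, and the second Tcf7l2 region, at 4.46, ranked 230. Their median highest −log10 q was 7.15, compared with 8.72 over all merged regions and 7.45 over those without a replicate 2 peak, a comparison added after the values were seen. A value above 10 was reached by 1 region, against 43.6% of all merged regions, and a value of at least 5 by 5 regions, against 84.9%. Among the 136 regions found in a single list the first Tcf7l2 region ranked 36, the first Vgll3 region and the Socs2 region 74, and the second Tcf7l2 region 107. Among the 88 regions found in 2 lists the second Vgll3 region ranked 51 and the third ranked 62.

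Several of these values were tied. The value 5.92 occurred at the first Vgll3 region, at a sub-peak of the second and at Socs2, and the same value stood in 25 of the 779 rows of replicate 1. In the same list 33 rows held the 6.83 of another Vgll3 sub-peak, and 19 held the 8.72 of the first Tcf7l2 region. Replicate 1 had 321 different values in all. At these levels the column is a coarse scale, and equal values at Vgll3 and Socs2 are no sign of equal binding.

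By width the regions differed with replicate support. The 2 regions in both lists were 1223 and 1267 bp wide and ranked 66 and 62 of 259. The 3 in replicate 1 alone measured 248, 258 and 330 bp and ranked 254, 241 and 202, where the narrowest merged region was 236 bp. The region in replicate 3 alone measured 559 bp and ranked 113. Under 1 kb were 4 of the 6, against 69.1% of all merged regions. The median width was 444.5 bp, compared with 469 bp over all merged regions. In the whole merged list, too, regions in 1 list were narrower, with a median of 340.5 bp against 1000.5 bp for those in 2 lists.

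Base composition also differed among the 6 regions, and the 559 bp region of Tcf7l2 here resembled those in both lists. The 3 narrow regions in replicate 1 alone had a GC content of 65.9% at Vgll3, 67.3% at Tcf7l2 and 67.3% at Socs2, and ranked 8, 3 and 4 among the 242 merged regions on assembled chromosomes. The other 3 had 46.3% and 38.4% at Vgll3 and 48.1% at Tcf7l2, near or below the median of 47.5%. This comparison was made after the values were seen. The high GC content was not shared by replicate 1 regions in general, because the 54 regions in that list alone had a median of 45.2%, lower than the 47.7% of the 73 in replicate 3 alone. Still, 8 of the 10 merged regions with the highest GC content were in replicate 1 alone, and the 3 regions here are among these 10. The part of base composition in the peak calls was not tested.

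The CpG ratio (observed over expected) of the 3 GC-rich regions was 0.647 at Vgll3, 0.466 at Tcf7l2 and 0.595 at Socs2, against a median of 0.417 over the 242. By this ratio they ranked 63, 103 and 74, so they stood out less than by GC content. The other 3 lay between 0.324 and 0.403. All 6 regions were free of 50-mers with another copy in the genome, as were 71.1% of the 242, and repeat-masked bases made up at most 10.6% of any of them. Every stretch of 50 bases in these regions was thus unique in the reference. The first Tcf7l2 region, the most GC-rich of the 6, is shown on the plus strand, chr19:55744025-55744272, with its 13 CpG dinucleotides in capitals.
Tcf7l2 region 1: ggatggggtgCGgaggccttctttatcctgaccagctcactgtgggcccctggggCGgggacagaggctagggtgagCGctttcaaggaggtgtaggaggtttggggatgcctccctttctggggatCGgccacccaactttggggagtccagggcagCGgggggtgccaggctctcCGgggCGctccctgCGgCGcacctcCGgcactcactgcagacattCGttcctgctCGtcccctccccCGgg

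The study designed ChIP-qPCR primers for each of the genes, and the primers were placed on the genome to see which peak each amplicon tests. With this assay the paper reports, from independent experiments, that Ash1L knockdown lowered Ash1L enrichment at all the direct targets it tested. That evidence is separate from the peak lists, whose support at each amplicon is given here. The Vgll3 amplicon, chr16:65815851-65816065 (215 bp), fell in the second Vgll3 region and wholly inside a peak of both replicate 1 and replicate 3. The peak of replicate 3 that it meets is the lower of that list's pair, at 5.67. The Socs2 amplicon, chr10:95414346-95414585 (240 bp), lay wholly in the region found in replicate 1 alone. The Tcf7l2 amplicon, chr19:55743980-55744129 (150 bp), had 105 bp in the first Tcf7l2 region, again in replicate 1 alone, and none in the second. No amplicon covered the Vgll3 promoter region, the third Vgll3 region or the Tcf7l2 region of replicate 3. Both Tcf7l2 primers matched the genome exactly. Each Socs2 primer needed 1 changed, inserted or deleted base and the reverse primer of Vgll3 needed 2, while the forward primer of Vgll3 matched exactly. The amplicons are given on the plus strand as in the reference, with the bases aligned to the primers in capitals.
Vgll3 amplicon: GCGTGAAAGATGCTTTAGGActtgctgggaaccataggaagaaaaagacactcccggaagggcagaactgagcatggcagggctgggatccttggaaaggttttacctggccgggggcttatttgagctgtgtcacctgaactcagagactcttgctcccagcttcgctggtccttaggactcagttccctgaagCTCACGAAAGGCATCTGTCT
Tcf7l2 amplicon: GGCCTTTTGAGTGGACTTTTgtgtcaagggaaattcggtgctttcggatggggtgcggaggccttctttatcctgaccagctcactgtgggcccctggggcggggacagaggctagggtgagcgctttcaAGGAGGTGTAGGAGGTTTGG
Socs2 amplicon: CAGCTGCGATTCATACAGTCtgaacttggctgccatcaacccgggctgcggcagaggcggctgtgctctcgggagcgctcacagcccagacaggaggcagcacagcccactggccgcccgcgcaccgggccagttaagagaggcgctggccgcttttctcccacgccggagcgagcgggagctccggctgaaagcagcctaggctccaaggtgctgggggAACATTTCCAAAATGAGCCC

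Cdon and Eya4, for which such primers were also designed, are given for comparison. The Cdon region was 632 bp wide, intronic, and in 2 lists, with values of 5.04 in replicate 1 and 3.64 in replicate 3. Eya4 had 3 regions, of which 2 were in 2 lists, and its amplicon lay in the widest, 1900 bp long, with 8.72 in replicate 1 and 16.6 in replicate 3. That widest Eya4 region touched an exon. It was wider than every region of Vgll3, Tcf7l2 and Socs2 and had a higher highest value. None of the Cdon and Eya4 regions had a replicate 2 peak either. Of the 185 bp of the Eya4 amplicon, all lay in a replicate 3 peak but only 20 in a replicate 1 peak. The Socs2 and Tcf7l2 amplicons met a peak of a single list, while those of Vgll3 and Cdon lay wholly in peaks of 2.

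Motifs of the transcription factors at the end of each pathway, and of the muscle E-box, were looked for on both strands within 125 bp of the middle base of each region. The TEAD motif GGAATG occurred in 1 of the 6 windows, against 17.8% of the 242 windows, and the TCF/LEF motif CTTTGAT in 1, against 4.96%. The STAT5 motif TTCNNNGAA occurred in 1, against 9.5%, and the E-box CAGCTG, bound by myogenic bHLH factors, in 2, against 11.6%. At least 1 of the 4 was present in 4 of the 6 windows, against 37.2% of all windows. The motifs were not at the genes their names call to mind, except for TEAD at Vgll3. The first Vgll3 region had the TEAD motif, on the minus strand at chr16:65815126-65815131, and an E-box, the second had the STAT5 motif and the third had the TCF/LEF motif. The Socs2 window had an E-box, at the 5′ end of its amplicon, and the Tcf7l2 windows had none of the 4. A match of so few letters is a description of the sequence and not of a bound site.

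The TEAD match lies in the Vgll3 promoter, and the part of the first Vgll3 region that precedes every annotated start is therefore shown, chr16:65815078-65815188 on the plus strand, with the motif in capitals as its reverse complement. RefSeq's promoter window for Vgll3 (GRCm38.p6) shares 161 bp with the region, and neither Tcf7l2 window touches a region. The STAT5 match in the second region (chr16:65816257-65816289) and the TCF/LEF match in the third (chr16:65817763-65817793) are given with 12 bp on either side, both on the plus strand. They are the matches within 125 bp of the middle base. Farther out, the second region had another STAT5 match at chr16:65816036-65816044, inside the amplicon, and the third had another TCF/LEF match at chr16:65817442-65817448 and a TEAD match at chr16:65818039-65818044, both on the minus strand.
Vgll3 promoter: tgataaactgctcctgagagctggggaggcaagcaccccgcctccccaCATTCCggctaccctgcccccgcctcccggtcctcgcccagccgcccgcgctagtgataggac
Vgll3 STAT5 match: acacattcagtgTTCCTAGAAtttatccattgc
Vgll3 TCF/LEF match: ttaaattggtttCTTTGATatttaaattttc

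The other genes listed for these pathways had no Ash1L region. Of 16 genes for TEAD factors, their cofactors and the Hippo kinases, 1 had a region, Vgll3 itself, and neither the paralogs Vgll1, Vgll2 and Vgll4 nor Tead1 to Tead4, Yap1 or Wwtr1 had one. Of 15 genes for TCF/LEF factors and Wnt/β-catenin signalling, Tcf7l2 was the only one, and its paralogs Tcf7, Tcf7l1 and Lef1 had none. Of 19 genes for SOCS proteins, JAK kinases and STAT factors and their partners, only Socs2 had a region. The count was the same, 3 of 50, when a region within 10 kb of the gene body was enough in place of the annotation. The closest to a region among the remaining genes was Axin2, a feedback inhibitor of Wnt signalling, at 60926 bp. Since the 3 genes were chosen for having regions, these counts describe the lists and say nothing about the pathways as targets. In the whole genome only 146 genes had an assigned region, so a gene without one is the usual case. Paralogs without a region therefore do not mark the 3 genes as special within their pathways.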

How the data were processed

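Ash1L ChIP-seq libraries of 3 replicates were used. After trimming, BWA-MEM alignment (mm10) and removal of duplicates and blacklisted stretches, the authors ran MACS2 on each replicate against input, without pooling. The deposited lists hold 1 unnamed column, read here as −log10 q, and the deposited merged list holds positions only. It equalled the merge of the 3 lists. Regions were assigned to genes by the study's annotation, from which no value was taken. The published methods describe merging and annotating broad peaks, but all 259 positions in that annotation equalled those of the merged narrow list. A list supported a region when it shared at least 1 bp with it. TSSs and exons came from GENCODE M21, sequences from the RefSeq GRCm38.p6 genome, and primers were placed with edlib 1.3.9.post1. Windows planned around summits were centred on the middle of each region, because the lists used here give no summit position. The overlap and distance steps were tested on simulated data. No test was run: all results are descriptions. Members, gene lists and motifs were chosen with earlier results of these data known. Named genes were the members, pathway genes with a region, the other genes with ChIP-qPCR primers, and genes that overlap a region or hold its nearest TSS. Axin2, Cradd and 5730420D15Rik, as neighbours, and the pathway genes without a region were named after their values were seen. A gene that the rule covers is not reported here.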

Additional observations from a re-analysis of the deposited data

How the results depend on the processing

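No paired analysis was possible because the results come from no test. The count of 2 regions in at least 2 lists fell to 1 with only peak rows of a −log10 q of at least 5. It was 1 when peaks had to cover 50% of the merged region, and 0 when they had to overlap by 50% of both. With each replicate left out it ran from 0 to 2, an outcome fixed by replicate 2 having no peak at these regions. All 6 regions were within 5 kb of a TSS, and 3 within 1 kb. With each replicate left out, 4 to 6 regions were found, all of them within 5 kb. The other settings for distance and annotation, including the first coding base (chosen after seeing the data), gave 6, and with only peak rows of at least 5 there were 5 regions, all within 5 kb. The median highest value, 7.15, was 6.14 as the mean over lists and 8.72 over each gene's highest region, and ran from 5.92 to 7.15 with a replicate left out. The median width, 444.5 bp, was 1536 bp with regions within 10 kb joined, and otherwise ran from 330 to 553.5 bp. Of the 6 windows 4 had a motif at each size tried, but the share of all windows with one rose from 37.2% to 54.1% in the wider window and 63.2% over whole regions (chosen after seeing the data), near the members' own share. Over whole regions the TEAD motif was in 2 regions in place of 1, against 39.3% of all whole regions. The count of pathway genes was 2 without replicate 1, where Socs2 had no peak, and otherwise 3. Settings that needed summit positions were not run. Apart from the outcome fixed by the lack of replicate 2 peaks, the cause of these shifts was not tested.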
